A study of Homo sapiens with 24 samples.

Results

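The epithelial and mesenchymal identity genes described here were 10 genes, the cadherins CDH1 and CDH2, the epithelial genes EPCAM and KRT18, the intermediate filament gene VIM and the transcription factor genes ZEB1, ZEB2, SNAI1, SNAI2 and TWIST1. They were taken by gene symbol from the 58174 genes listed for each of 4 human cancer cell lines, from a list drawn up with earlier results of these data known, and all 10 are reported in every line. Cells of each line received control siRNA in the siC group and an siRNA pool directed at IGF2BP1 in the siI1 group. IGF2BP1 is an oncofetal RNA-binding protein that stabilises many mRNAs. The groups of A549 (lung cancer), ES2 (ovarian cancer) and MV3 (melanoma) were harvested after 72 h and those of PANC1 (pancreatic cancer) after 96 h, with 3 libraries per group and 24 in all. The cells grew in DMEM with serum, and total RNA depleted of ribosomal RNA was sequenced. Each tumour type stood on 1 cell line, and a line and its harvest time cannot be told apart in PANC1. The comparison asks how the 10 mRNAs changed when IGF2BP1 was lowered, and whether the change was alike in the 4 lines.

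Epithelial cells hold together through E-cadherin, the product of CDH1, and carry the adhesion molecule EpCAM and a keratin skeleton to which KRT18 contributes. Cells that lose these features and gain N-cadherin (CDH2) and vimentin (VIM) are said to undergo an epithelial-mesenchymal transition, a programme used in development and wound closure and often seen in part in carcinoma cells. The zinc finger proteins of the ZEB and SNAI families and the helix-loop-helix protein TWIST1 drive that programme. ZEB1, ZEB2, SNAI1 and SNAI2 repress CDH1 by binding short E-box words in its promoter.

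The E-box word CACCTG, read on both strands and so also as CAGGTG, was searched in the RefSeq promoter windows (GRCh38.p14, from 250 bases before to 50 bases after a start site). Of the 10 members, 4 were matched by symbol, CDH2, VIM, ZEB1 and ZEB2, with 11 windows between them. CDH1, EPCAM, KRT18, SNAI1, SNAI2 and TWIST1 were not matched. The word was in 2 of the 11 windows, both of ZEB1, against 20.6% of all 35116 windows. The 2 windows below are shown because VIM passed the test in more lines than any other member, and because the third of 7 start sites of ZEB1 held 3 copies, as 0.64% of all windows did (3 or more). Capitals mark the word, and the VIM window (chr10:17227991-17228290, plus strand) held none.
VIM: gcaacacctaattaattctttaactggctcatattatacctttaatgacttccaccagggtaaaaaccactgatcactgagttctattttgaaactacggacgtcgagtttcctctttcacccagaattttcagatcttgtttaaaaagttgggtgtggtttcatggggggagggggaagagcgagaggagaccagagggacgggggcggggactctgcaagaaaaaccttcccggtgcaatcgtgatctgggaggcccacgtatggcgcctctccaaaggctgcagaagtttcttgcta
ZEB1: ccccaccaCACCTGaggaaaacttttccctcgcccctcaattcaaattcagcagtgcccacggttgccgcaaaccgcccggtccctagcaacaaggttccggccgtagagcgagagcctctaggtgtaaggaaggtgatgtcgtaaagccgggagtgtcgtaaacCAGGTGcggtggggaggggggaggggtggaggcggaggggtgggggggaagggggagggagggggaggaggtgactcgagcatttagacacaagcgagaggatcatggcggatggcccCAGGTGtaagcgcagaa
The ZEB1 window lies at chr10:31318966-31319265 on the plus strand, and its words begin at -242, -85 and 34 from the start site. A match of letters does not show that a factor is bound there.

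Values are fragments per kilobase of listed gene length, scaled by an effective library size that was worked out from the values (FPKM). That size was 0.905 to 1.104 times the reads assigned to genes. In PANC1 it was 1.005 to 1.104 times with siC and 0.905 to 0.972 times with siI1. Changes are differences of log2(FPKM + 0.5), siI1 minus siC, each with its standard error and 95% confidence interval. A gene was tested in a line, with limma, where its 6 libraries averaged 0.5 FPKM or more, and "rose" or "fell" is used for an adjusted p under 0.05 over all genes of that line. The libraries held 3105215 to 20082702 reads assigned to genes, with the fewest in A549 and the most in MV3. In mean FPKM, IGF2BP1 changed by -60.6% for A549, -68.3% for ES2, -68.6% for MV3 and -75.1% for PANC1, and its siC and siI1 libraries did not overlap in any line. Markers of the tissues of origin were largely missing, with none of 8 lung alveolar markers tested in A549, none of 7 ovarian markers in ES2, none of 8 melanocyte markers in MV3 and 2 of 8 pancreatic markers in PANC1. In PANC1 the FPKM values summed to 526337 to 756438 in the siC libraries and to 977547 to 1191707 in the siI1 libraries. Rescaling every library to the same sum shifted the median change of all PANC1 genes from -0.04 to -0.68, by -0.64, against 0.06 or less in size in the other lines, and the share of higher genes among those called fell from 45.7% to 1.1%. In ES2 that share moved from 44.6% to 55.6%. Of the 15846 genes tested in PANC1, 95 rose and 8844 fell after this rescaling. Per the methods, the libraries of a group were biological replicates, and p-values measure the spread between them.

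The 10 genes gave 40 pairs of a gene and a line, of which 29 could be tested, and 10 of these passed. In A549, 9 members were tested, 1 rose (SNAI2) and 3 fell (CDH1, VIM and KRT18), where 5.93% of all 18411 genes tested rose and 7.83% fell. In ES2, 7 were tested, 2 rose (CDH2 and SNAI2) and 1 fell (VIM), against 10.5% and 13% of 16920 genes. None of the 6 members tested in MV3 passed, although 16.3% of its 16380 genes rose and 19.5% fell, 7496 of them had an unadjusted p under 0.05, and limma voom on the recovered reads called VIM there. In PANC1, 7 were tested, 1 rose (VIM) and 2 fell (CDH1 and EPCAM), against 11.3% and 13.4% of 15846 genes. Voom called 13 of the 29 pairs, the same 10 and further KRT18 in PANC1, ZEB2 in ES2 and VIM in MV3, where it called 22.7% of all genes of A549, 31.7% of ES2, 43% of MV3 and 31.7% of PANC1.

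**Figure D1:**
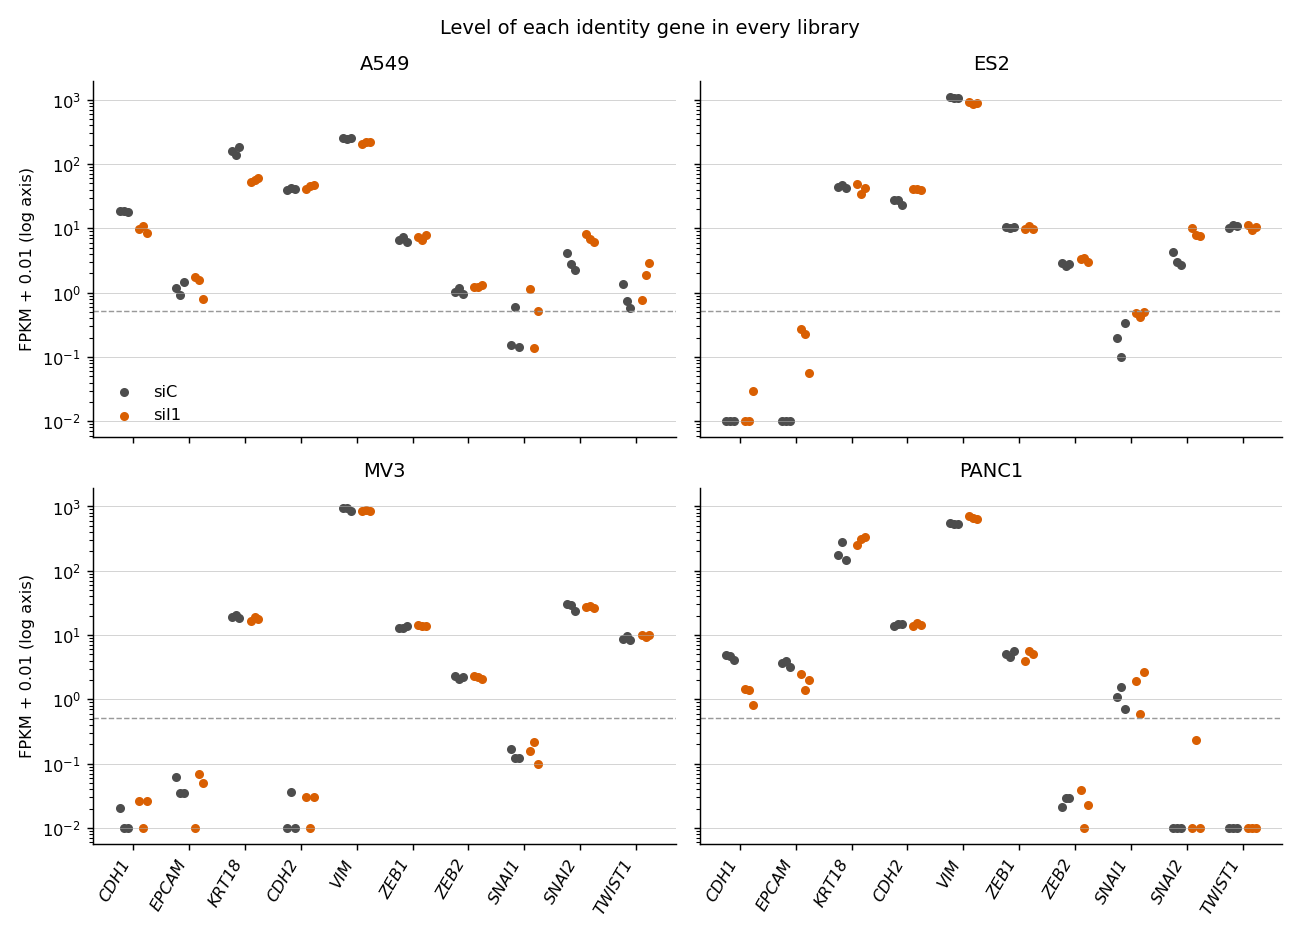
FPKM of the 10 identity genes in each of the 24 libraries, on a log axis with 0.01 added so that zeros can be drawn, one panel per line, grey for siC and orange for siI1. The dashed line marks the mean of 0.5 FPKM needed for a test. CDH1 and EPCAM stand above it only in A549 and PANC1, and VIM has the highest FPKM of the 10 genes in all 24 libraries.

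**Figure D2:**
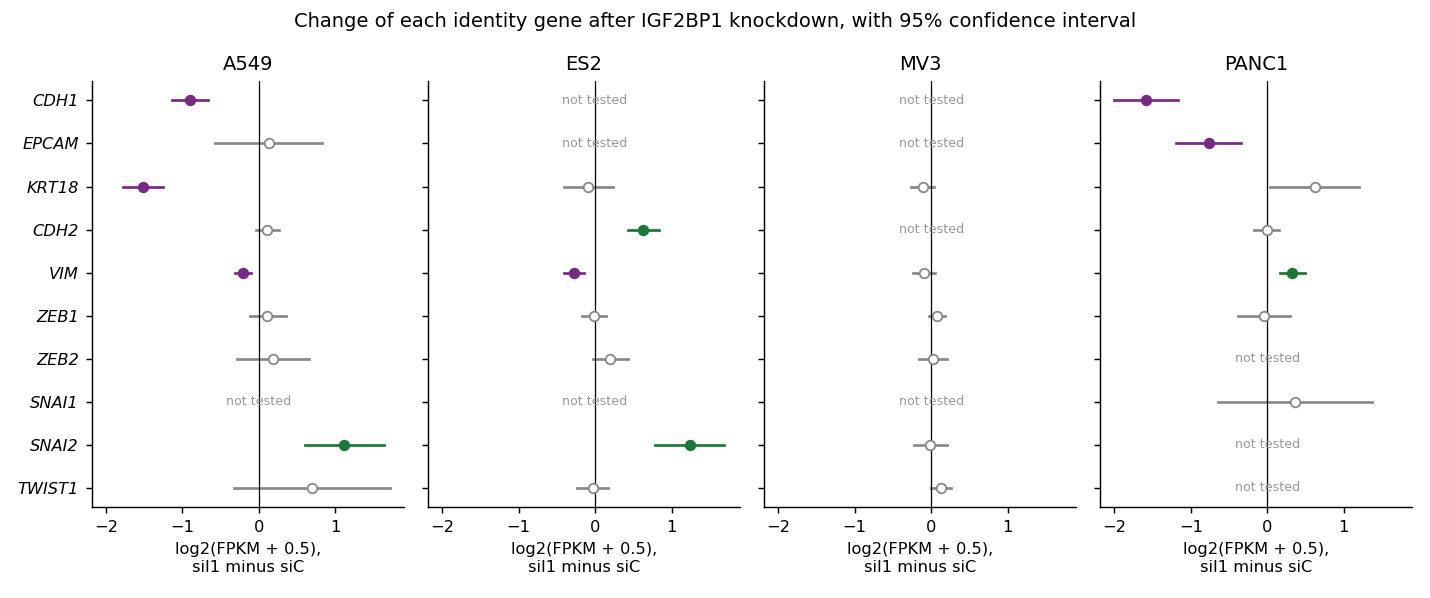
Change of each member in log2(FPKM + 0.5), siI1 minus siC, with its 95% confidence interval, in the 4 lines. Green marks genes that rose, purple genes that fell and open circles genes that did not pass. The PANC1 values of VIM (0.32), KRT18 (0.62) and SNAI1 (0.36) change sign when libraries are rescaled to the same sum. They then lie 0.25, 0.55 and 0.54 above the median of all genes.

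CDH1 (ENSG00000039068, chr16:68737292-68835537, plus strand, hg38) encodes E-cadherin, the cell adhesion protein whose loss defines the transition. It fell in both lines that expressed it. In A549 it stood at 18.3, 18.9 and 18.0 FPKM in the siC libraries and at 9.81, 10.8 and 8.36 FPKM in the siI1 libraries. All 3 siI1 libraries were below all 3 siC libraries, and the mean fell from 18.4 ± 0.454 to 9.66 ± 1.24 FPKM (SD, n = 3 each). The change was -0.90 ± 0.10 on the log2 scale (interval -1.14 to -0.66, limma adjusted p = 0.00352). In bulk RNA, fewer cells that express a gene and less of its RNA per cell cannot be told apart.

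In PANC1, CDH1 stood at 4.83, 4.79 and 4.03 FPKM with siC and at 1.42, 1.37 and 0.816 FPKM with siI1. The groups were again apart, and the siI1 libraries rested on 32 to 60 reads each against 209 to 252 with siC. The change was -1.59 ± 0.17 (interval -2.00 to -1.17, limma adjusted p = 0.00237). Relative to the median of all genes it was -1.55 as deposited and -1.52 after rescaling to the same sum. The fall was larger in PANC1 than in A549, by an interaction test over both lines (limma adjusted p = 0.0042), where 37.9% of 17776 genes differed between the lines in which they were tested.

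ES2 and MV3 had almost no CDH1 mRNA. In ES2 there was 1 read in 1 of 6 libraries, and a count of 0 allows up to 0.0756 FPKM at the depth of the shallowest library (3 reads). In MV3 the highest library had 2 reads, 0.0165 FPKM. A change of CDH1 was not detectable at this depth in either line.

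CDH2 (ENSG00000170558, chr18:27932879-28177946, minus strand) encodes N-cadherin, a cadherin of nerve, muscle and mesenchymal cells. It rose in ES2, and the change did not pass in A549 and PANC1, where CDH1 fell. The ES2 libraries gave 27.3, 27.9 and 22.8 FPKM with siC and 41.5, 40.5 and 39.0 FPKM with siI1. Each siI1 library was above each siC library, a mean of 40.4 ± 1.25 against 26.0 ± 2.80 FPKM (SD, n = 3 each). The change was 0.63 ± 0.08 (interval 0.43 to 0.83, limma adjusted p = 0.00347).

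In A549, CDH2 had 39.3, 42.6 and 41.1 FPKM with siC against 41.1, 45.3 and 46.6 FPKM with siI1, and the groups overlapped. The change of 0.11 had an interval from -0.04 to 0.26 (limma adjusted p = 0.324). In PANC1 the values were 13.6, 15.0 and 14.8 FPKM against 13.8, 15.2 and 14.2 FPKM, which overlap throughout. That change was -0.01 with an interval of -0.17 to 0.15 (limma adjusted p = 0.929), and it became -0.74 when libraries were rescaled to the same sum (limma adjusted p = 0.00616), which is -0.06 from the median of all genes under that scaling. MV3 had at most 2 reads of CDH2 in a library. The change of CDH2 differed between A549, ES2 and PANC1 (interaction, limma adjusted p = 7.94e-05).

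The balance of both cadherins, log2(CDH1 + 0.5) minus log2(CDH2 + 0.5) of the FPKM values, moved toward CDH2 in A549, ES2 and PANC1, by the numbers of single libraries. It lay between -1.17 and -1.08 in the siC libraries of A549 and between -2.41 and -2.01 in the siI1 libraries. In PANC1 it went from between -1.76 and -1.41 to between -3.48 and -2.89. In ES2, where CDH1 was near 0, it went from between -5.83 and -5.54 to between -6.39 and -6.25. The siC and siI1 ranges did not overlap in these 3 lines. In MV3 both genes were near 0, and the balance stayed between -0.07 and 0.03 in all 6 libraries. This balance is given as a description and was not tested.

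**Figure D3:**
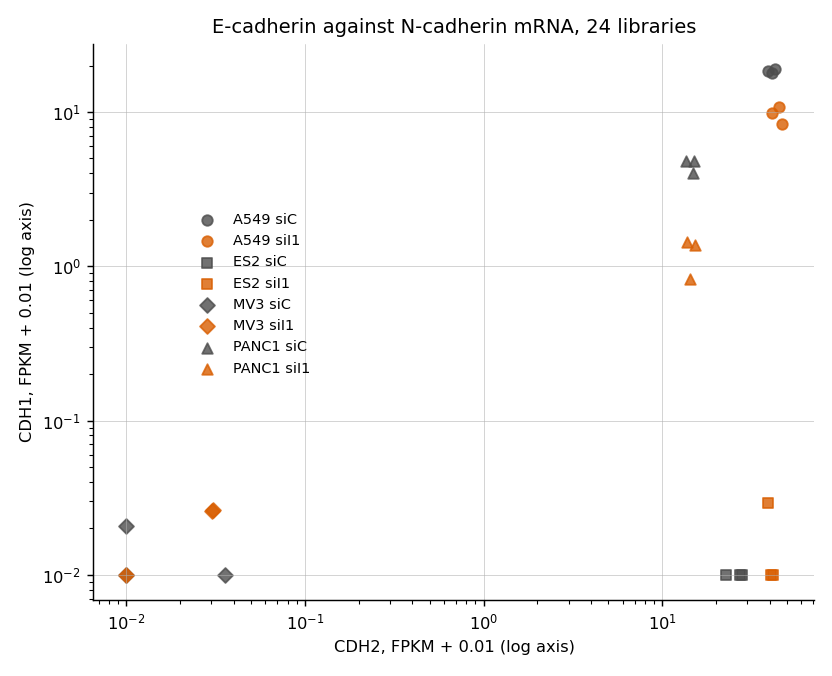
CDH1 against CDH2 FPKM in the 24 libraries, both on log axes with 0.01 added, with one marker shape per line, grey for siC and orange for siI1. A549 and PANC1 libraries move down along the CDH1 axis after knockdown, the ES2 libraries shift to the right, from at most 27.9 to at least 39.0 FPKM of CDH2, and the MV3 libraries lie in the corner near 0 for both genes.

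EPCAM (ENSG00000119888, chr2:47345158-47387601, plus strand) encodes the epithelial cell adhesion molecule, a surface protein of most simple epithelia and carcinomas. It fell in PANC1, where it had the most RNA. The PANC1 libraries gave 3.64, 3.92 and 3.21 FPKM with siC and 2.44, 1.39 and 2.0 FPKM with siI1. The groups did not overlap, on 66 to 84 reads per siC library and 21 to 42 per siI1 library. The change was -0.76 ± 0.18 (interval -1.19 to -0.34, limma adjusted p = 0.0248), and the call was lost without siC replicate 1 (0.0806), siC replicate 2 (0.0662) or siI1 replicate 3 (0.0604).

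In A549, EPCAM had 1.17, 0.898 and 1.45 FPKM with siC and 1.73, 1.57 and 0.784 FPKM with siI1, on 7 to 18 reads a library. The groups overlapped, and the interval of the change ran from -0.57 to 0.83 (0.13, limma adjusted p = 0.831). ES2 had no EPCAM read in 3 siC libraries and 1 to 5 reads in the siI1 libraries (0.261, 0.220 and 0.047 FPKM, mean 0.176 FPKM). A count of 0 in the shallowest siC library allows up to 0.185 FPKM (3 reads). That limit is for 1 library and not for the siC mean, and EPCAM was not tested in ES2. MV3 had 0 to 3 reads. The change of EPCAM differed between A549 and PANC1 by the interaction test (limma adjusted p = 0.0154), but not by voom (adjusted p = 0.117).

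KRT18 (ENSG00000111057, chr12:52948871-52952906, plus strand) encodes keratin 18, a type I keratin of simple epithelia that pairs with keratin 8. Its largest change was in A549. There the siC libraries had 162, 140 and 185 FPKM and the siI1 libraries 52.3, 56.2 and 60.3 FPKM. The groups were far apart, and the mean fell by 65.3%. The change was -1.51 ± 0.11 (interval -1.78 to -1.25, limma adjusted p = 0.00109), the largest in size among the members in that line.

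The PANC1 values of KRT18 pointed the other way but did not pass. They were 175, 281 and 147 FPKM with siC and 256, 310 and 334 FPKM with siI1. The second siC library lay above the lowest siI1 library, so that the groups overlapped. With all libraries the change was 0.62 ± 0.24 (interval 0.04 to 1.20, limma adjusted p = 0.112), and after rescaling to the same sum it was -0.13, which is 0.55 above the median of all genes. Without siC replicate 2 it was 0.89 (limma adjusted p = 0.0119), and voom on all libraries gave an adjusted p of 0.00455. Replicates 2 and 3 of siC in PANC1 were also the most unlike pair over all genes, with a chi-square of 15.11 per gene against 1.54 to 5.87 in the other 23 pairs of replicates.

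In ES2, KRT18 had 43.8, 47.4 and 41.9 FPKM with siC and 49.4, 34.5 and 42.5 FPKM with siI1, a wide overlap (-0.09, interval -0.40 to 0.23, limma adjusted p = 0.682). In MV3 it had 19.0, 20.2 and 18.5 FPKM against 16.3, 19.0 and 18.0 FPKM (-0.11, interval -0.27 to 0.04, limma adjusted p = 0.222). The 4 changes differed (interaction, limma adjusted p = 2.15e-05). KRT18 has many processed pseudogenes, 67 of them listed as genes of their own, so how shared reads were assigned may affect its level. KRT8, the partner keratin, with 50 listed pseudogenes, was looked up after the values of KRT18 were seen. It fell in A549 from 512 ± 25.2 to 242 ± 10.8 FPKM (-1.08, limma adjusted p = 0.000586) and rose in ES2 (0.51, limma adjusted p = 0.00402) and MV3 (0.24, limma adjusted p = 0.0395, and 0.0691 after rescaling to the same sum). In PANC1 it rose from 717 ± 76.8 to 979 ± 47.9 FPKM (0.45, limma adjusted p = 0.0223), a direction that turned to -0.30 with rescaling to the same sum. That value is 0.38 above the median of all genes.

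VIM (ENSG00000026025, chr10:17228241-17237593, plus strand) encodes vimentin, the intermediate filament protein of mesenchymal cells. It was the most abundant member per length in each line, and its changes were small, with opposite signs. In A549 it had 252, 242 and 250 FPKM with siC and 208, 217 and 220 FPKM with siI1. It fell by 13.3% in the mean, with no overlap (-0.21 ± 0.04, limma adjusted p = 0.0298), but the call was lost without any 1 of the 6 libraries (limma adjusted p = 0.0528 to 0.106).

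In ES2 the values were 1095, 1083 and 1058 FPKM with siC and 927, 849 and 892 FPKM with siI1. VIM fell there by 17.6% (-0.28 ± 0.05, interval -0.41 to -0.15, limma adjusted p = 0.0124), again with no overlap, and the call was lost without the filter on low values (0.102). In MV3 it had 962, 952 and 863 FPKM against 861, 892 and 847 FPKM, and the groups overlapped through the third siC library (-0.09 ± 0.06, limma adjusted p = 0.271, voom adjusted p = 0.0322).

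PANC1 had 558, 538 and 526 FPKM of VIM with siC and 706, 674 and 648 FPKM with siI1. All siI1 libraries were above all siC libraries as deposited (0.32 ± 0.07, interval 0.16 to 0.49, limma adjusted p = 0.0189), whereas rescaling to the same sum gave -0.43 (limma adjusted p = 0.0342), which was still 0.25 above the median of all genes. The rise was also lost without siC replicate 1 (limma adjusted p = 0.0636), siI1 replicate 1 (0.0875) or siI1 replicate 2 (0.0673). Over the 4 lines the changes of VIM differed (interaction, limma adjusted p = 8.88e-06), but not after rescaling to the same sum (0.186). The antisense gene VIM-AS1 was listed at 0.739 to 6.472 FPKM. The library kit keeps the strand, but the strand setting of the counting is not given in the sources used here.

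**Figure D4:**
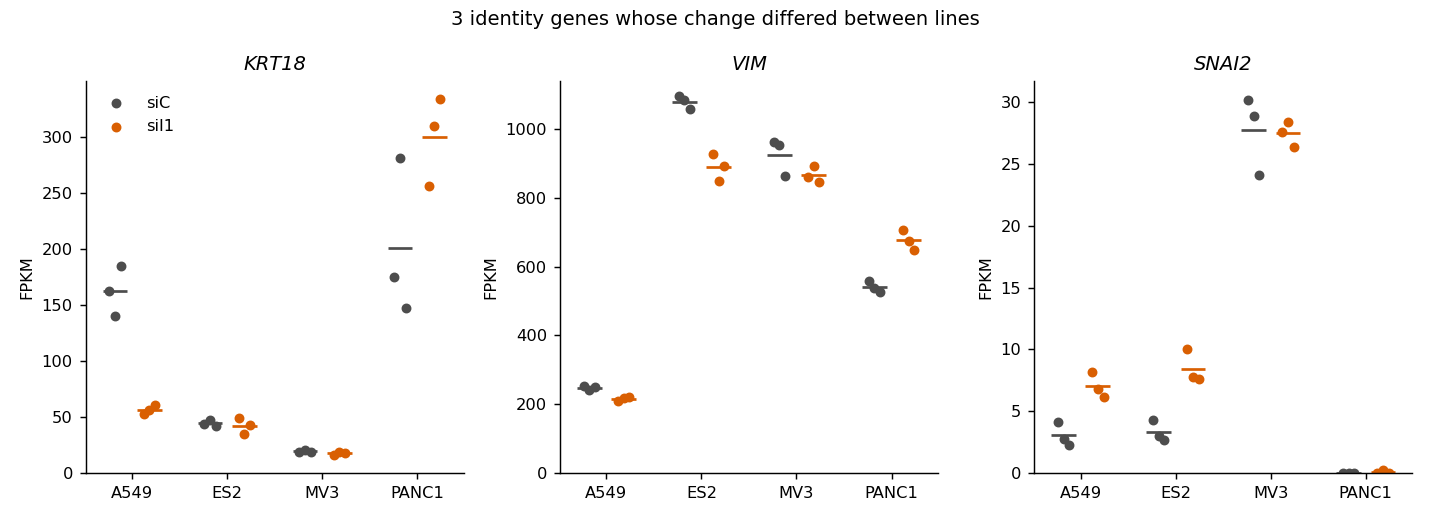
FPKM of KRT18, VIM and SNAI2 in every library of the 4 lines, grey for siC and orange for siI1, with a short line at each group mean and axes that start at 0. KRT18 fell in A549 and did not pass in the other 3 lines, VIM fell in A549 and ES2 and was higher in PANC1 as deposited (lower after rescaling to the same sum), and SNAI2 rose in A549 and ES2 to levels below those of MV3.

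ZEB1 (ENSG00000148516, chr10:31318495-31529814, plus strand) and ZEB2 (ENSG00000169554, chr2:144364364-144521057, minus strand) encode the paired zinc finger repressors of epithelial genes. Neither passed the limma test in any line as deposited. The ZEB1 values in A549 were 6.60, 7.23 and 6.17 FPKM with siC and 7.26, 6.69 and 7.83 FPKM with siI1, and in ES2 10.5, 10.1 and 10.4 FPKM and 9.83, 11 and 9.93 FPKM. In MV3 they were 12.9, 12.7 and 14.0 FPKM with siC and 14.2, 13.7 and 13.9 FPKM with siI1, and in PANC1 4.99, 4.52 and 5.71 FPKM and 4.01, 5.71 and 5.13 FPKM. The groups overlapped in every line.

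The 4 changes of ZEB1 were 0.11 (interval -0.12 to 0.35, limma adjusted p = 0.516) in A549, -0.01 (-0.17 to 0.14, 0.896) in ES2, 0.08 (-0.03 to 0.18, 0.249) in MV3 and -0.04 (-0.38 to 0.30, 0.869) in PANC1. The intervals leave room for changes of up to 0.38 in size in PANC1 and 0.18 in MV3. Rescaling to the same sum made the PANC1 value -0.73 (limma adjusted p = 0.0228), which is -0.05 from the median of all genes. As deposited, no difference between lines was called (interaction, limma adjusted p = 0.733), whereas after rescaling to the same sum one was (0.00574). ZEB1-AS1, a gene on the opposite strand at the ZEB1 start, was listed at 0.217 to 2.061 FPKM.

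ZEB2 was tested in 3 lines. In ES2 it had 2.90, 2.57 and 2.83 FPKM with siC and 3.37, 3.44 and 2.97 FPKM with siI1. All siI1 libraries were above all siC libraries, yet the change of 0.20 ± 0.10 did not pass (interval -0.03 to 0.43, limma adjusted p = 0.183), while voom gave an adjusted p of 0.025. A549 also had no overlap, with 1.02, 1.18 and 0.950 FPKM against 1.23, 1.22 and 1.32 FPKM (0.18, interval -0.29 to 0.66, limma adjusted p = 0.605). In MV3 the values were 2.29, 2.04 and 2.23 FPKM against 2.30, 2.25 and 2.1 FPKM (0.02, interval -0.16 to 0.20, limma adjusted p = 0.877). PANC1 had 0 to 5 reads of ZEB2 in a library. The listed length of ZEB2 is 24970 bases against 8650 for ZEB1, so its level per length depends on that gene model.

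SNAI2 (ENSG00000019549, on chromosome 8) encodes Slug, the repressor that neural crest cells and many basal epithelia use. It rose in A549 and in ES2, the lines in which its siC level was low but measurable. In A549 it had 4.12, 2.74 and 2.28 FPKM with siC and 8.18, 6.78 and 6.15 FPKM with siI1. Every siI1 library was above every siC library, on 48 to 68 reads against 22 to 37. The change was 1.11 ± 0.21 (interval 0.60 to 1.63, limma adjusted p = 0.0207). The call was lost without siC replicate 2 or 3 or siI1 replicate 1 or 2 (limma adjusted p = 0.057 to 0.0678), with changes of 0.95 to 1.13.

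In ES2, SNAI2 had 4.31, 2.97 and 2.70 FPKM with siC and 10.0, 7.74 and 7.57 FPKM with siI1. The mean went from 3.33 ± 0.860 to 8.45 ± 1.37 FPKM (SD, n = 3 each) with no overlap. That change was 1.24 ± 0.18 (interval 0.79 to 1.68, limma adjusted p = 0.00523).

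MV3 had the most SNAI2 by far, and no change passed there. The libraries gave 30.2, 28.9 and 24.1 FPKM with siC and 27.6, 28.4 and 26.4 FPKM with siI1, and the siI1 values lay inside the siC range. The change was -0.01 with an interval of -0.22 to 0.20 (limma adjusted p = 0.946). PANC1 had 3 reads of SNAI2 in 1 siI1 library and none in the other 5. The change differed between A549, ES2 and MV3 (interaction, limma adjusted p = 0.00163).

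SNAI1 (ENSG00000124216, chr20:49982980-49988886, plus strand), which encodes Snail, the other SNAI repressor among the members, had few reads. A549, ES2 and MV3 libraries held 1 to 7 reads and it was not tested in these lines. In ES2 its 0.185, 0.0904 and 0.329 FPKM with siC lay below the 0.468, 0.411 and 0.491 FPKM with siI1, on 1 to 4 and 5 to 7 reads. PANC1 had 1.07, 1.53 and 0.706 FPKM with siC and 1.91, 0.592 and 2.62 FPKM with siI1. These overlapped on 6 to 28 reads, and the change of 0.36 had a wide interval, from -0.64 to 1.37 (limma adjusted p = 0.573). It became -0.14 after rescaling to the same sum, which is 0.54 above the median of all genes.

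TWIST1 (ENSG00000122691, chr7:19020991-19117636, minus strand) encodes a transcription factor of the cranial mesoderm and neural crest. No change of it passed in a fit of 1 line. In ES2 it had 9.96, 11.4 and 10.8 FPKM with siC and 11.4, 9.55 and 10.4 FPKM with siI1 (-0.03, interval -0.24 to 0.17, limma adjusted p = 0.812). In MV3 it had 8.79, 9.54 and 8.41 FPKM with siC and 9.90, 9.44 and 10.0 FPKM with siI1, and the groups overlapped in 1 library of each. That change was 0.13 (interval 0.00 to 0.26, limma adjusted p = 0.117). A549 spread widely, with 1.33, 0.742 and 0.561 FPKM against 0.764, 1.84 and 2.92 FPKM on 5 to 21 reads (0.69, interval -0.33 to 1.71, limma adjusted p = 0.355). No PANC1 library had a read, which allows up to 0.245 FPKM (3 reads).

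Between lines the tables were normalised separately, so the order of levels in siC libraries is a description. CDH1 stood highest in A549 (median 18.3 FPKM), then in PANC1 (4.79 FPKM), and at or near 0 in ES2 and MV3. EPCAM had the reverse order in these lines, 3.64 FPKM in PANC1 and 1.17 FPKM in A549. KRT18 was alike in PANC1 (175 FPKM) and A549 (162 FPKM), whose libraries overlap, and lower in ES2 (43.8 FPKM) and MV3 (19.0 FPKM). CDH2 went from 41.1 FPKM in A549 through 27.3 FPKM in ES2 and 14.8 FPKM in PANC1 to near 0 in MV3. The line with the most CDH1 mRNA thus also had the most CDH2 mRNA.

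VIM was highest in ES2 (1083 FPKM), then in MV3 (952 FPKM), PANC1 (538 FPKM) and A549 (250 FPKM), and ZEB1 was highest in MV3 (12.9 FPKM), then in ES2 (10.4 FPKM), A549 (6.60 FPKM) and PANC1 (4.99 FPKM). For both genes no neighbours in this order overlapped. SNAI2 was at 28.9 FPKM in MV3, and ES2 (2.97 FPKM) and A549 (2.74 FPKM) overlapped below it. TWIST1 was at 10.8 FPKM in ES2, 8.79 FPKM in MV3 and 0.742 FPKM in A549. ZEB2 was at 2.83 FPKM in ES2, 2.23 FPKM in MV3, 1.02 FPKM in A549 and 0.0188 FPKM in PANC1. SNAI1 was highest in PANC1 (1.07 FPKM), the line where SNAI2, TWIST1 and ZEB2 were at or near 0, and the other 3 lines overlapped in sequence below it.

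Likeness over the 24 libraries was taken with each library rescaled to the same sum, out of 11111 genes compared. The genes whose log2 values then followed those of CDH1 most closely were ITGB4 (Pearson r = 0.992), an integrin subunit of hemidesmosomes, SLC47A1 (0.991) and CFD (0.99). For ZEB1 they were RTFDC1 (0.983), CHD4 (0.982) and CDKN3 (0.981), and for VIM ADAMTS1 (0.982), UAP1 (0.979) and OXCT1 (0.978). The points share 4 lines, their depths and the shift that this rescaling gave in PANC1, so these values are a description.

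Among the other epithelial genes, those that passed were lower in A549 and went both ways in PANC1. Of 33 genes of junctions, keratins and epithelial surface, 24 were tested in A549, 10 fell and none rose. The median change was -0.37 against -0.01 over all genes, of which 7.83% fell and 5.93% rose. KRT7, a keratin of glandular epithelia, fell from 399 ± 17.4 to 149 ± 3.74 FPKM (-1.41, limma adjusted p = 0.000319), and LLGL2, a cell polarity gene, from 9.31 ± 1.05 to 3.91 ± 0.269 FPKM (-1.15, limma adjusted p = 0.00226). In PANC1, 26 were tested, 5 rose and 6 fell, with a median of -0.13 against -0.04 over all genes, of which 11.3% rose and 13.4% fell. JUP, which encodes plakoglobin of junctions and desmosomes, rose from 34.2 ± 4.76 to 79.8 ± 6.66 FPKM (1.22, limma adjusted p = 0.00165), SPINT1, a surface protease inhibitor, rose by 1.04 (limma adjusted p = 0.00171) and KRT80 fell (-0.74, limma adjusted p = 0.00246). With rescaling to the same sum 1 rose and 21 fell in PANC1 (median -0.83 against -0.68 over all genes, of which 8844 of 15846 fell). JUP (0.47) and SPINT1 (0.31, no longer passing) kept their sign. Few of the list were tested in ES2 (8, of which 3 rose and 1 fell) and MV3 (10, 1 rose and 1 fell). Of all genes 10.5% rose and 13% fell in ES2, and 16.3% rose and 19.5% fell in MV3. The MV3 counts and the count that fell in ES2 are not above these shares.

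In ES2 the 3 that rose were keratin genes, KRT80 (0.88, limma adjusted p = 0.000217), KRT7 (0.56, limma adjusted p = 0.00127) and KRT8. In MV3 KRT80 fell (-0.26, limma adjusted p = 0.0198), so that KRT80 rose in ES2 and fell in A549, MV3 and PANC1. Of 14 epithelial transcription and splicing factor genes, 5, 3, 2 and 7 were tested in A549, ES2, MV3 and PANC1. None rose, where 5.93%, 10.5%, 16.3% and 11.3% of all genes did, and with so few genes tested this is near those shares. In the same order of lines 2, 1, 1 and 1 fell, where 7.83%, 13%, 19.5% and 13.4% of all genes fell. The count that fell in PANC1 is thus near that share. The list's medians were -0.14, -0.17, -0.29 and -0.25, against -0.01, -0.02, 0.01 and -0.04 over all genes. After rescaling to the same sum 5 fell in PANC1, with a median of -0.92 against -0.68 over all genes, of which 8844 of 15846 fell. ELF3, an ETS factor of epithelia, fell in A549 from 18.6 ± 1.27 to 6.19 ± 0.742 FPKM (-1.52, limma adjusted p = 0.00086) and in PANC1 (-0.56, limma adjusted p = 0.0139). EHF, a related ETS factor, fell in A549 (-0.55, limma adjusted p = 0.00664), and KLF5 fell in MV3 (-0.52, limma adjusted p = 0.00362).

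Of 32 mesenchymal matrix, surface and cytoskeleton genes, 25 were tested in ES2, 18 rose and 2 fell. The median was 1.03 against -0.02 over all genes, of which 10.5% rose and 13% fell. MMP2, a matrix metalloproteinase, rose from 11.4 ± 1.47 to 84.1 ± 4.49 FPKM (2.83, limma adjusted p = 7.09e-05), and the collagen genes COL5A1 (2.54, limma adjusted p = 2.83e-05) and COL1A1 (2.40, limma adjusted p = 0.000675) rose with it. In MV3, where no member passed, 26 were tested, 14 rose and 7 fell (median 0.27 against 0.01). Of all MV3 genes 16.3% rose and 19.5% fell. COL1A1 rose there by 1.71 (limma adjusted p = 8.09e-05) and PDGFRB, a growth factor receptor of stromal cells, by 1.51 (limma adjusted p = 0.000166), while TAGLN, a smooth muscle actin-binding protein gene, fell (-1.60, limma adjusted p = 0.000173).

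The same list was split in the lines where CDH1 fell. In A549, 23 were tested, 7 rose and 7 fell (median -0.05 against -0.01), where 5.93% of all genes rose and 7.83% fell. TAGLN fell from 14.9 ± 1.20 to 2.31 ± 0.638 FPKM (-2.48, limma adjusted p = 0.00121) and NES, the gene of the filament protein nestin, also fell (-1.07, limma adjusted p = 0.0107), whereas NT5E, the surface nucleotidase CD73, rose (1.02, limma adjusted p = 0.00107). In PANC1, 17 were tested, 5 rose and 7 fell (median -0.28 against -0.04), where 11.3% of all genes rose and 13.4% fell. NES (-1.25, limma adjusted p = 0.00207) and S100A4 (-0.75, limma adjusted p = 0.0116) were among those that fell. TPM2, a tropomyosin gene, rose there (0.71, limma adjusted p = 0.00247). After rescaling to the same sum it was at -0.04, which is 0.64 above the median of all genes, and all 5 that rose changed sign. With that rescaling none rose and 13 fell (median -0.93 against -0.68 over all genes, of which 8844 of 15846 fell).

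Of 21 other transcription factor genes tied to mesenchymal states, 4 rose and 1 fell of 15 tested in A549, 1 and 4 of 16 in ES2, 5 and 6 of 17 in MV3, and 4 and 2 of 16 in PANC1. Of all genes, 5.93% rose and 7.83% fell in A549, 10.5% and 13% in ES2, 16.3% and 19.5% in MV3, and 11.3% and 13.4% in PANC1. The list's medians were 0.08, -0.02, -0.08 and 0.01 in that order of lines, against -0.01, -0.02, 0.01 and -0.04 over all genes. After rescaling to the same sum none rose and 9 of 16 fell in PANC1, where 8844 of all 15846 genes fell. The list's median there was then -0.63 against -0.68, so that the list moved much as all genes did. HMGA2, a chromatin protein gene, rose in A549 (0.97, limma adjusted p = 0.00136), and so did RUNX2 (0.71, limma adjusted p = 0.0359, and 0.0519 after rescaling to the same sum) and ID1 (0.65, limma adjusted p = 0.0207). In ES2 the homeobox gene PRRX1 (-0.64, limma adjusted p = 0.00381), SOX9 (-0.54, limma adjusted p = 0.00153) and the AP-1 gene FOSL1 (-0.51, limma adjusted p = 0.00354) fell while SNAI2 rose. FOSL1 (-0.73, limma adjusted p = 0.000486) and FOXC1 (-0.44, limma adjusted p = 0.00305) fell in MV3, where ID2 rose (0.31, limma adjusted p = 0.0277, and 0.0956 after rescaling). In PANC1, ID3 (0.88, limma adjusted p = 0.00661), SOX4 (0.76, limma adjusted p = 0.00109) and FOXC2 (0.54, limma adjusted p = 0.00626) rose, at 0.14, 0.02 and -0.16 after rescaling to the same sum. These values are 0.82, 0.70 and 0.52 above the median of all genes.

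Among other cadherins and catenins, those that passed fell in A549 and rose in ES2. Of 25 genes, 7 were tested in A549 and 3 fell (median -0.31 against -0.01 over all genes, of which 7.83% fell). In ES2, 8 were tested and 4 rose (median 0.21 against -0.02 over all genes, of which 10.5% rose). CDH17, the cadherin of intestinal epithelium, fell in A549 from 3.99 ± 0.622 to 0.433 ± 0.163 FPKM (-2.27, limma adjusted p = 0.00218), with CDH6 (-1.06, limma adjusted p = 0.00667) and CTNND1, the gene of the cadherin partner p120 catenin (-0.52, limma adjusted p = 0.00281). CDH5, the endothelial cadherin, rose in ES2 (0.65, limma adjusted p = 0.00713), as did CDH13 (0.57, limma adjusted p = 0.000603) and CDH24 (0.47, limma adjusted p = 0.00436). In MV3 CDH24 (0.32, limma adjusted p = 0.0399) and CTNND1 (0.11, limma adjusted p = 0.0209) rose of 5 tested, but neither passed after rescaling to the same sum (0.105 and 0.215). Of all MV3 genes 16.3% rose. None of 5 passed in PANC1 (limma), where voom called 1 lower and called 31.7% of all genes in either direction. With rescaling to the same sum 4 fell, where 8844 of all 15846 genes fell. The list's median there was then -0.71 against -0.68 over all genes, so that the list moved much as all genes did.

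The 10 genes of corepressors that work with ZEB and SNAI factors were all tested in every line. None rose and 2 fell in A549, none rose and 1 fell in ES2, 1 rose and 5 fell in MV3, and 1 rose and 4 fell in PANC1. Over all genes 5.93%, 10.5%, 16.3% and 11.3% rose in these lines, so that the counts that rose are near these shares. In the same order 7.83%, 13%, 19.5% and 13.4% of all genes fell, so that the count that fell in ES2 is near its share. The medians of the list were -0.14, -0.14, -0.16 and -0.21, against -0.01, -0.02, 0.01 and -0.04 over all genes. After rescaling to the same sum none rose and 10 fell in PANC1, where 95 of all 15846 genes rose and 8844 fell. The list's median there was then -0.89 against -0.68 over all genes. SIRT1, a deacetylase gene, fell in ES2 (-0.43, limma adjusted p = 0.0127, and 0.0575 after rescaling), MV3 (-0.43, limma adjusted p = 0.0154) and PANC1 (-0.78, limma adjusted p = 0.00448). RCOR1, the gene of CoREST, fell in A549 (-0.74, limma adjusted p = 0.0224) and PANC1 (-0.41, limma adjusted p = 0.0255), and EZH2, the gene of the histone H3 methyltransferase of Polycomb, in MV3 (-0.39, limma adjusted p = 0.0161) and PANC1 (-0.57, limma adjusted p = 0.0101). CTBP2, a binding partner of ZEB proteins, fell in A549 (-0.41, limma adjusted p = 0.021) and MV3 (-0.25, limma adjusted p = 0.0108, and 0.0579 after rescaling).

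**Figure D5:**
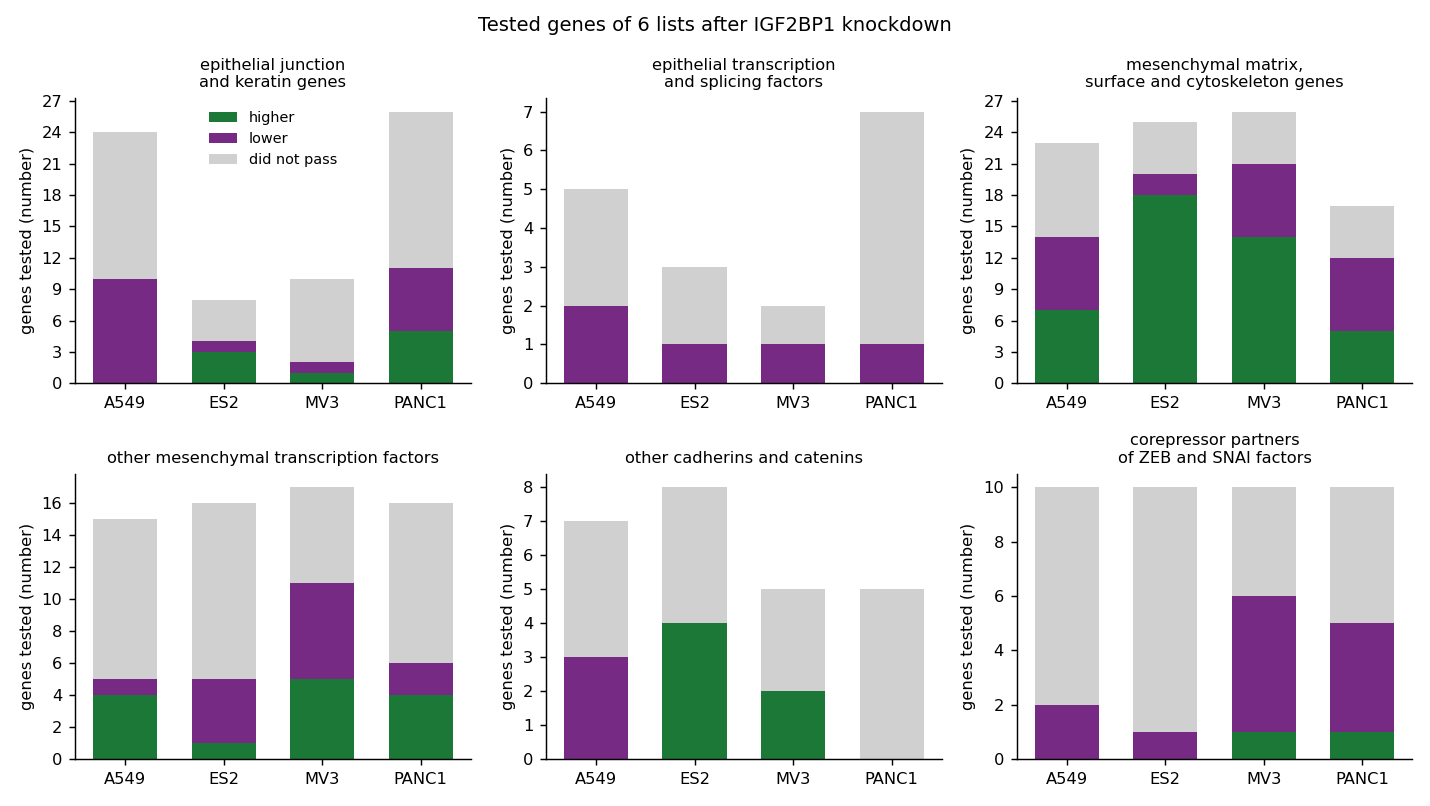
Number of tested genes that rose (green), fell (purple) or did not pass (grey) in 6 lists of related genes, one bar per line. In A549, 10 of 24 epithelial junction and keratin genes fell and none rose, and in ES2, 18 of 25 mesenchymal matrix, surface and cytoskeleton genes rose. Over all genes 7.83% fell in A549 and 10.5% rose in ES2. PANC1 counts are as deposited and shift toward lower with rescaling to the same sum.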

How the data were processed

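Values were taken from 1 table per line, deposited by the authors as normalised values, with the listed gene length. Per the labels and methods, the authors clipped adapters (cutadapt 1.14), aligned reads to hg38 (HISAT2 2.1.0, SAMtools 1.5), counted reads per gene (featureCounts 1.5.3) and normalised with edgeR 3.30.3. The deposited values are FPKM, worked out from the values: multiplied by length, 100% were whole multiples of 1 step per library (tolerance 0.001), which gave the reads. The authors' comparison columns (log2 fold change, p-value, FDR) were not used.

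Each line was fitted alone with limma 3.58.1 (R 4.3.3, intensity trend, two-sided) on log2(FPKM + 0.5), without covariates, with Benjamini-Hochberg adjustment over the genes that averaged 0.5 FPKM or more in the line and a threshold of 0.05. Adding 0.5 understates the change of low genes. The difference between lines was an F test in 1 fit over 24 libraries. Alternatives were voom on the reads (with the same effective library sizes), other pseudocounts and filters, rescaling to the same sum and no trend. Further ones were 1 joint fit, a replicate block and leaving out each library. For the difference between lines, the same replicate of siC or siI1 was left out of every line at once. The voom interaction was added after the data were seen. Replicates of a group differed beyond sampling noise (chi-square per gene 1.54 to 15.11 over genes with at least 20 reads), so each was counted. From each list, up to 3 called genes per line with the largest changes and a mean of at least 1 FPKM were named. The members and lists were chosen with earlier results of these data known. Coordinates are from GENCODE release 44 (hg38) and count from 1. Limits from a count of 0 use 3 reads and cover counting error only. Python 3.11.15, numpy 2.4.6, pandas 2.3.3 and matplotlib 3.10.9 were used.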

Additional observations from a re-analysis of the deposited data

Results flagged for a closer look

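The change after knockdown differed between lines for 6 of the 9 members tested in at least 2 lines, by an interaction term in 1 limma fit with adjustment over 17776 genes, of which 37.9% differed. The adjusted p was 8.88e-06 for VIM and 2.15e-05 for KRT18 over 4 lines. It was 7.94e-05 for CDH2 over A549, ES2 and PANC1, 0.00163 for SNAI2 over A549, ES2 and MV3, and 0.0042 for CDH1 and 0.0154 for EPCAM over A549 and PANC1. CDH1, CDH2, SNAI2 and KRT18 stayed under 0.05 in all 13 alternatives run, with highest values of 0.0384, 0.00219, 0.0475 and 0.00132. VIM did so in 12 of 13, with 0.186 after rescaling to the same sum, and EPCAM in 6 of 13, with a highest value of 0.133. That rescaling shifted the median change in PANC1 by -0.64. It widened the gap between PANC1 and the other lines for CDH1, CDH2 and EPCAM, so it is a weak check for these genes. ZEB1 (0.733), ZEB2 (0.363) and TWIST1 (0.186) were not called. Exceptions were ZEB1 after rescaling to the same sum (0.00574) and TWIST1 without siI1 replicate 1 (0.00757). In these alternatives a replicate that was left out was left out of every line at once.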

How the results depend on the processing

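Of 435 values of members under the alternatives, 402 kept their call, 24 lost it, 8 gained it and 1 turned, VIM in PANC1 (-0.43 after rescaling to the same sum). CDH1 in A549 and PANC1, KRT18 in A549, and CDH2 and SNAI2 in ES2 were called in all 15 alternatives each. For the fall of CDH1 in PANC1, rescaling to the same sum is a weak check, as 8844 of all 15846 genes fell under it. TWIST1 in A549 passed only in the joint fit (0.0326). The number of genes called in A549 was 2533, against 5642 in the joint fit and 4176 with voom. In PANC1 it was 3927, against 5941 in the joint fit and 8939 after rescaling to the same sum, which also moved the count of genes that differ between lines from 6741 to 10383. Members called in PANC1 went from 3 to 1 without a filter and to 5 after rescaling, and in MV3 from 0 to 1 with voom. Leaving out 1 library gave 1374 to 1797 genes in A549, 2638 to 3096 in ES2 (3973 with all), 4487 to 5594 in MV3 (5853 with all) and 2278 to 3842 in PANC1. It gave 2 to 3 members in A549 (4 with all) and 1 to 3 in PANC1. For the difference between lines, the same replicate of siC or siI1 was left out of every line at once. That gave 5032 to 6146 genes that differ between lines, and 5 to 7 members that do. Same-numbered siC and siI1 libraries did not deviate together (r = -0.056 to 0.084 over 12 pairs, none over 0.1), so the numbers were not taken to pair samples. With a replicate block 1001 genes were called in A549 and 2612 in ES2, members called were 3, 2, 0 and 2 in A549, ES2, MV3 and PANC1, and 5696 genes differed between lines. The members that lost their call with the block were VIM in A549 (0.122) and ES2 (0.0641) and EPCAM in PANC1 (0.0567). The cause of these shifts was not tested. SNAI1 and the low genes of ES2, MV3 and PANC1 were limited by depth.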
